A study of Rattus norvegicus with 9 samples.

Results

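The complement system was followed through 9 genes, C1qa, C1qb, C1qc, C1r, C1s, C2, C4b, C3 and Cfb, in rat brain after middle cerebral artery occlusion (MCAO, a stroke model in which the artery feeding much of the cortex and striatum is blocked and then reopened). Members were the non-control probes whose transcript accession belongs to one of these genes, which gave 10 probes for the 9 genes among 22783 features tested, a feature being a gene or an unnamed transcript. Every group held male Sprague Dawley rats with no genetic modification named in the labels, 3 rats and 3 one-colour Agilent arrays per group. Sham-operated rats were the controls, the vehicle group had MCAO with reperfusion and saline, and the salidroside group had MCAO with reperfusion and salidroside (a phenylethanoid glycoside of Rhodiola plants) at 50 mg per kg. Saline or salidroside was injected into the abdomen daily for 6 days, from 1 h after reperfusion. The age of the rats, the length of the occlusion and whether sham rats were injected are not given in the sources used here, and no group had salidroside without MCAO. RNA came from dissected tissue that the labels call ischemic brain in the MCAO groups and sham brain in the controls, with no region named.

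Complement is a set of proteins that tag cells and debris for removal and draw in immune cells. In the classical pathway, C1q binds a surface, its partner proteases C1r and C1s cut C4 and C2, and the pieces form an enzyme that cleaves C3, the protein on which all pathways meet. The alternative pathway amplifies C3 cleavage through factor B, and regulators in the fluid phase and on cell membranes hold both in check. In brain, microglia are a main source of C1q and astrocytes can make C3, and complement is known for its part in the tagging of synapses and in the response to stroke.

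All 10 probes were well above background on all 9 arrays, and none was saturated. Values are the log2 of the background-corrected signal minus the 75th percentile of the array, called scaled log2 here, so that 1 unit is a doubling relative to that array's brighter probes. A gene was called changed at a Benjamini-Hochberg adjusted p under 0.05 from limma, adjusted over all 22783 features. Each level holds for its own probe and is not set against that of another gene. The share of all probes well above background was 81.97% to 88.53% on 8 arrays and lower, 65.63%, on sham replicate 3. A slide here means arrays that share a scan identifier in the file headers. Sham and MCAO arrays shared no such slide, so slide and operation cannot be told apart. Sham replicate 3 was also alone on its slide and scanned on another day than the other arrays. All 8 astrocyte markers and the 7 neuron markers with a tested probe of 8 listed were above background on every array, Rbfox3 having no named probe.

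C1q is built from 3 kinds of chain, encoded by C1qa, C1qb and C1qc, which follow one another on chromosome 5. All 3 genes were higher in vehicle-treated MCAO brain than in sham brain on every array. Of the 9 members, C1qc was the 1 that passed the test, where 2.8% of all features were called and 1.11% were called higher. On the sham arrays C1qc stood at -1.38, -1.29 and -1.31 (scaled log2), on the vehicle arrays at 0.49, 0.25 and 1.24, and on the salidroside arrays at -1.31, -0.63 and 0.12. The sham values were tightly grouped, all vehicle values lay above them, and the salidroside values ran from the sham level to just under the lowest vehicle array. C1qc rose by 1.99 on the log2 scale, or 3.97-fold, from sham to vehicle (SE 0.370, limma adjusted p = 0.0343).

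The call of C1qc was lost when any 1 sham or vehicle array was left out. Its change then lay between 1.70 (without vehicle replicate 3, limma adjusted p = 0.133) and 2.19 (without vehicle replicate 2, adjusted p = 0.0523), and the other adjusted p-values were 0.0659, 0.0804 and 0.136 without sham replicates 1, 2 and 3 and 0.0749 without vehicle replicate 1. It was also lost without salidroside replicate 2, whose spread enters the fit (adjusted p = 0.0600), and with slide as a random block (1.94, adjusted p = 0.0506). Over all 20 alternatives the adjusted p ran from 0.00960 to 0.160, and the change was positive in each.

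C1qb, whose product forms the second chain, stood at 1.69, 1.72 and 1.66 in sham, at 3.35, 3.18 and 4.06 with vehicle and at 1.65, 1.89 and 3.30 with salidroside. Again no vehicle value reached down to sham, while salidroside replicate 1 lay at the sham level and salidroside replicate 3 among the vehicle arrays. The log2 difference of vehicle from sham was 1.84 (95% interval 0.89 to 2.78, limma adjusted p = 0.0565). C1qa had values of 0.64, 0.99 and 1.00 in sham, 2.22, 2.23 and 3.16 with vehicle and 0.60, 1.13 and 2.33 with salidroside, and a log2 difference of 1.66 (95% interval 0.66 to 2.65, adjusted p = 0.0776). Only 1.09% of all features had a larger vehicle minus sham difference than C1qa, and 0.566% a larger one than C1qc.

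The 3 genes kept together from array to array. Over the 9 arrays the correlation was 0.986 between C1qa and C1qb, 0.977 between C1qa and C1qc and 0.982 between C1qb and C1qc, and on deviations from the group means it was 0.965, 0.966 and 0.943 (Pearson's r, n = 9 arrays, which share each array's labelling and scaling). Because these neighbouring genes moved together, the promoters of the 2 for which RefSeq's GRCr8 table holds an entry are shown, 250 bases before to 50 after the annotated start, 5′ to 3′ on the gene's strand. Capitals mark matches to the motifs searched on both strands. The C1qa window is chr5:154419884-154420183 on the minus strand and the C1qb window chr5:154407778-154408077 on the minus strand.
C1qa: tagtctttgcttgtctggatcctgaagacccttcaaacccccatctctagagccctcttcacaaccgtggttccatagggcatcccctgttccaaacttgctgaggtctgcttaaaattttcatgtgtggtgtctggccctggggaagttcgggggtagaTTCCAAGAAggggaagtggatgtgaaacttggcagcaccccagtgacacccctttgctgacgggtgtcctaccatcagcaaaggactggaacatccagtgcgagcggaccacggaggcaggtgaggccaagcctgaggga
C1qb: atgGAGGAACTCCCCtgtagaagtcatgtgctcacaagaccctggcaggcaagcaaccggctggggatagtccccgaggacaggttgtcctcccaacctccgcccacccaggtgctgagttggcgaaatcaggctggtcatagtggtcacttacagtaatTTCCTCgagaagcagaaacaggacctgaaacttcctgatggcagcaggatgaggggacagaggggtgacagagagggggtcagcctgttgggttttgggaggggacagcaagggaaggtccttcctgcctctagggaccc
C1qa holds 1 match to the GAS element TTCNNNGAA, the form that STAT factors bind, beginning at base 161. C1qb holds the core GAGGAA of PU.1, a factor of myeloid cells, at base 4, and its reverse complement at base 161, and a kappa B motif on the minus strand from base 6 that overlaps the first of them. Such matches are common: of 33469 promoters of the same length 27.6% hold GAGGAA, 8.87% hold TTCNNNGAA and 7.51% hold the kappa B motif. Promoters were found for 5 of the 9 members, the others being C1r, C3 and C4a, and not for C1qc, C1s, C2 and Cfb. C1r had GAGGAA on the minus strand from base 196, and C3 and C4a had no match. None of them held the TATA box TATAAA, the AP-1 site or the core of the interferon-stimulated response element, which 14.2%, 7.33% and 3.92% of all promoters hold.

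**Figure D1:**
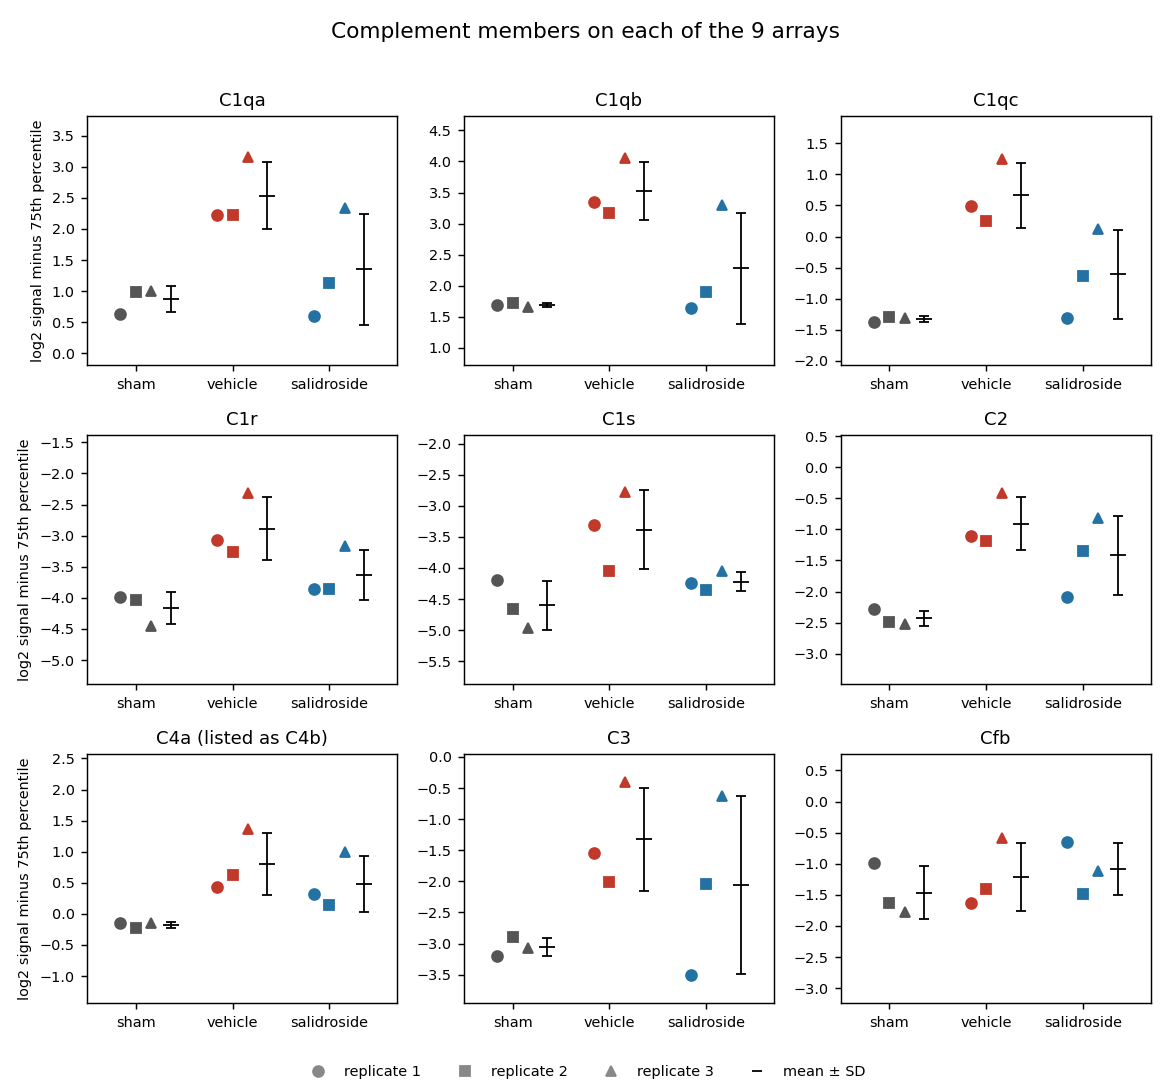
Scaled log2 signal (log2 signal minus the array's 75th percentile) of the 9 complement genes on each array, with circles, squares and triangles for replicates 1, 2 and 3 of each group and bars for the mean ± SD of 3 arrays. Every panel spans the same number of log2 units. The 3 C1q genes show the same layout, with vehicle above sham and salidroside spread between them, while the groups of Cfb overlap.

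C1r and C1s encode the 2 proteases of the C1 complex and lie side by side on chromosome 4. Both were higher on every vehicle array than on any sham array, and neither passed the test. C1r stood at -3.99, -4.03 and -4.46 in sham, -3.07, -3.27 and -2.32 with vehicle and -3.86, -3.86 and -3.16 with salidroside. Its log2 difference between vehicle and sham was 1.27 (95% interval 0.59 to 1.95, limma adjusted p = 0.0610). The C1r probe is printed on 10 spots per array, of which 7 to 10 could be used, and their SD within an array was 0.0408 to 0.175, below the SD of at least 0.259 over the rats of each group. C1s stood at -4.19, -4.65 and -4.97 in sham, -3.31, -4.05 and -2.78 with vehicle and -4.24, -4.36 and -4.05 with salidroside, with a log2 difference of 1.22 (95% interval 0.48 to 1.96, adjusted p = 0.0794). The salidroside arrays of C1s lay close together, within the range of sham apart from the highest. C1r and C1s had an r of 0.939 over the 9 arrays. Over the 20 alternatives, the vehicle minus sham difference ran from 0.61 to 1.46 for C1r and from 0.51 to 1.56 for C1s. C1r was called in 4 of them and C1s in 2, and the limma adjusted p reached 0.999 for both.

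C2 and C4 are the next proteins of the classical pathway and the substrates of C1s. C2 stood at -2.29, -2.49 and -2.52 in sham, -1.11, -1.19 and -0.42 with vehicle and -2.09, -1.35 and -0.82 with salidroside. On this probe all 6 MCAO arrays were above all 3 sham arrays. Between vehicle and sham the log2 difference of C2 was 1.53 (95% interval 0.78 to 2.28, limma adjusted p = 0.0502), just outside the threshold. The second C2 probe differed by 1.33 in the same comparison. On that probe salidroside replicate 1, at -2.77, lay among the sham arrays at -2.76, -2.75 and -2.96.

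The C4 probe carries an accession that RefSeq's GRCr8 table gives to C4a, a gene for which C4b is listed as an older symbol. No probe was matched to the gene now called C4b, a close copy on the same chromosome, so the array value may hold RNA of both. Their promoters are shown side by side to make that likeness visible, C4a at chr20:4010107-4010406 and C4b at chr20:4201729-4202028, both on the plus strand, with capitals for a GAGGAA match that is in the C4b window alone.
C4a: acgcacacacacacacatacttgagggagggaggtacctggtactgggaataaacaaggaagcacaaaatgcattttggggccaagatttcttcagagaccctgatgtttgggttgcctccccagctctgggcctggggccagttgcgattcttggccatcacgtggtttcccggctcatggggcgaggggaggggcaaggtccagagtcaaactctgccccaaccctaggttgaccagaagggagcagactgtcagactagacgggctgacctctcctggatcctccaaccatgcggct
C4b: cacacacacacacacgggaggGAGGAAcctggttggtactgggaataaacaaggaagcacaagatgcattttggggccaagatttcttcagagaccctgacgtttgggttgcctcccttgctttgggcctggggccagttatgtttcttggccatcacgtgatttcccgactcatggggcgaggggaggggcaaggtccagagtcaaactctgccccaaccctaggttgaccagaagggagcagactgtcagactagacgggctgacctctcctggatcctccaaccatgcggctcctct
With all gaps left out of the count, 279 of 291 aligned bases (95.9%) were identical, and 18 bases lay in gaps. This likeness of the promoters does not show which RNA the probe detects, which was not tested. The C4a value was -0.14, -0.23 and -0.15 in sham, 0.43, 0.62 and 1.36 with vehicle and 0.31, 0.14 and 1.00 with salidroside, again with all 6 MCAO arrays above sham. The log2 difference between vehicle and sham was 0.98 (95% interval 0.31 to 1.64, limma adjusted p = 0.0998).

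C3, where the pathways meet, had the widest spread among the MCAO arrays. It stood at -3.20, -2.90 and -3.07 in sham, -1.54, -2.02 and -0.41 with vehicle and -3.51, -2.04 and -0.64 with salidroside. The vehicle arrays lay above sham, and the salidroside arrays reached from below the lowest sham value to close to the highest vehicle value (SD 0.149, 0.825 and 1.44 over 3 arrays of sham, vehicle and salidroside). The log2 difference between vehicle and sham was 1.73, with a 95% interval of 0.21 to 3.26 (limma adjusted p = 0.165). Factor B, encoded by Cfb beside C2 on chromosome 20, did not share this layout. Cfb stood at -0.98, -1.63 and -1.78 in sham, -1.63, -1.41 and -0.59 with vehicle and -0.65, -1.49 and -1.12 with salidroside, and the groups overlapped. Its log2 difference was 0.26 (95% interval -0.52 to 1.03, adjusted p = 0.692), and -0.05 without vehicle replicate 3. Although C2 and Cfb are neighbours, their r over the 9 arrays was 0.337, and with the other members Cfb had an r of 0.183 to 0.551.

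Taking the members by pathway, the 7 classical genes all had a positive difference between vehicle and sham, as 57.9% of all features did, with a median of 1.53, and 1 was called. C3 and Cfb had differences of 1.73 and 0.26, and neither was called. Over all 9 members the median was 1.53, against 0.0903 over all features, and 8 of 9 had an unadjusted p under 0.05, against 15.8% of all features that were higher at that level. The same 8, all but Cfb, had no overlap between vehicle and sham arrays, with vehicle higher, where 18.5% of all features did. Leaving out 1 array put the number called between 0 and 4: it was 4 without salidroside replicate 1 or 3, 1 without vehicle replicate 2 (C1s), and 0 without any of the others. Without vehicle replicate 3, which had the highest value of the 6 MCAO arrays for all 9 members, the members' median was 1.28. Scaling to the array median in place of the 75th percentile called 5 of the 9 (C1qa, C1qb, C1qc, C1r and C2) and array weights 6, while normexp background correction called 0.

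**Figure D2:**
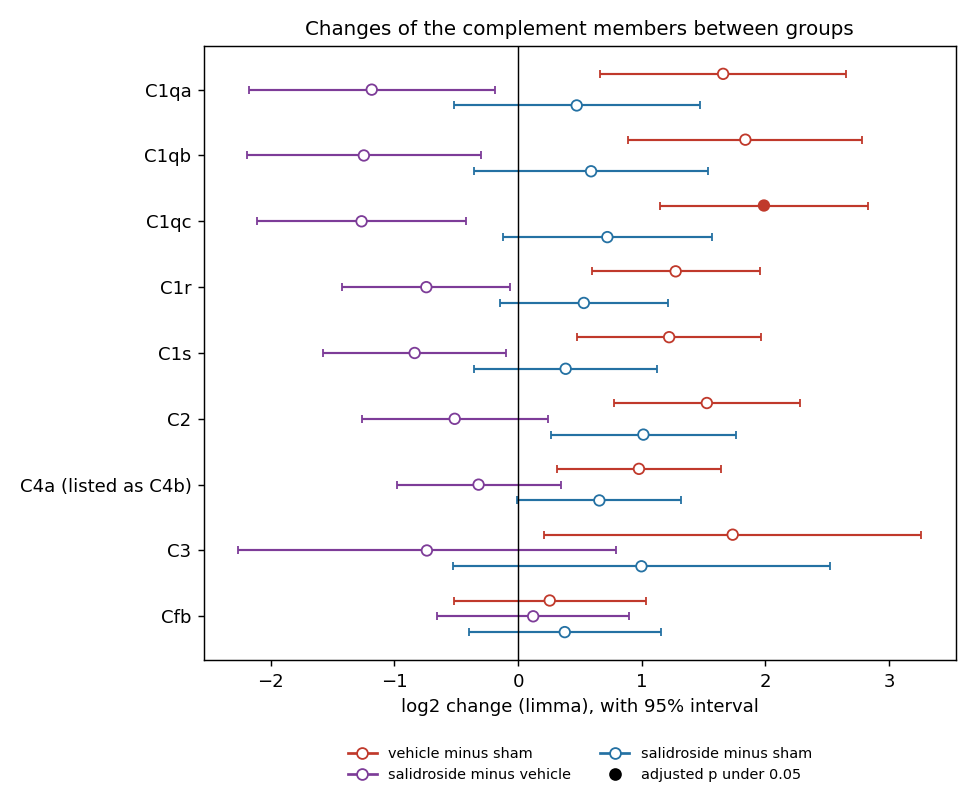
Log2 differences between groups for the 9 members, with 95% intervals from limma, in red for vehicle minus sham, purple for salidroside minus vehicle and blue for salidroside minus sham. The filled point, C1qc between vehicle and sham at 1.99, is the 1 difference with an adjusted p under 0.05. The purple points lie left of 0 except that of Cfb at 0.12.

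The series asks what salidroside does to expression in ischemic brain. No member passed the test between salidroside and vehicle (limma, all 22783 features), with 5 at an unadjusted p under 0.05. Those 5 were the C1 genes, C1qa, C1qb, C1qc, C1r and C1s, all lower with salidroside, and 3 features in all, or 0.0132%, were called, while 2.79% were lower at an unadjusted p under 0.05. C1qc had a log2 difference of -1.27 (95% interval -2.11 to -0.42, adjusted p = 0.609), C1qb of -1.25 (-2.19 to -0.30, adjusted p = 0.709) and C1qa of -1.18 (-2.18 to -0.19, adjusted p = 0.773). C1qc was the 1 member whose salidroside and vehicle arrays did not overlap, where 6.22% of all features were lower without overlap.

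C1r and C1s had differences of -0.74 (adjusted p = 0.792) and -0.84 (adjusted p = 0.791), but 0.18 and 0.23 under normexp correction. Under that correction the median of all features between salidroside and vehicle was 0.548, against 0.0558 in the scaling used here, and the members' median was -0.16. C2 differed by -0.51 (95% interval -1.26 to 0.24), C4a by -0.32 (-0.98 to 0.34) and C3 by -0.74 (-2.26 to 0.79), which was 0.05 under normexp correction. Cfb differed by 0.12 (-0.66 to 0.90), and by -0.10 with array weights. The intervals of these 4 genes hold 0 and also a difference of the size of that between vehicle and sham in Cfb. Of the 9 members 8 had a negative difference, with a median of -0.74, while 58.6% of all features had a positive one.

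The 3 salidroside rats differed among themselves. Salidroside replicates 1 and 2 lay below every vehicle array for 8 of the 9 members each, and salidroside replicate 3 for 1, C1qc, where 35.3%, 15% and 18.9% of all features did on replicates 1, 2 and 3. Above every sham array lay 4 members on replicate 1, 7 on replicate 2 and 8 on replicate 3, and 24.7%, 47.8% and 46.2% of all features. The SD over the salidroside arrays exceeded that over the sham arrays for 7 of 9 members, where it did for 52.8% of all features, and the vehicle SD did for 9 of 9, against 54.1%. The members' median difference between salidroside and vehicle was -0.97 without salidroside replicate 3, -0.63 without salidroside replicate 1, -0.46 without vehicle replicate 3 and -1.08 without vehicle replicate 2, with 0 called in each.

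Slide 1 carried vehicle replicates 1 and 3 and salidroside replicates 2 and 3, and slide 3 vehicle replicate 2 and salidroside replicate 1. Within slide 1 salidroside minus vehicle was -1.12 for C1qc, -1.11 for C1qb and -0.96 for C1qa, and within slide 3 it was -1.56, -1.53 and -1.63. The C1q difference thus had the same sign on both slides. For C3 the values within the slides were -0.36 and -1.49, and for C1s they were -1.16 and -0.19. Cfb had -0.20 within slide 1 and 0.76 within slide 3.

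Between salidroside and sham no member was called (limma), where 1.24% of all features were, and 1 had an unadjusted p under 0.05, where 10.9% of all features were higher at that level. That gene was C2, with a log2 difference of 1.01 (95% interval 0.26 to 1.76, adjusted p = 0.183). It was called without salidroside replicate 1. The second C2 probe differed by 0.67 (limma unadjusted p = 0.106), and on it the arrays of these groups overlapped. Arrays of C1r, C2 and C4a did not overlap between these groups, with salidroside higher, as for 13.5% of all features. All 9 differences were positive, with a median of 0.59 against 0.115 over all features, of which 64.5% were positive. C4a stood at 0.66 (95% interval -0.01 to 1.32), C3 at 1.00 (-0.53 to 2.52), C1qc at 0.72 (-0.12 to 1.57) and C1qa at 0.47, which was -0.02 without salidroside replicate 3.

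With both MCAO groups pooled against sham, no member was called (limma), where 3.53% of all features were, and 8 had an unadjusted p under 0.05, where 16% of all features were higher at that level. All 9 differences were positive, against 61.4% of all features. C2 had a log2 difference of 1.27 (adjusted p = 0.0507), C1qc of 1.35 (adjusted p = 0.0562) and C1r of 0.90 (adjusted p = 0.0848). The same 3 members as above, C1r, C2 and C4a, had all 6 MCAO arrays over all 3 sham arrays, as 9.31% of features did. The second C2 probe, with a log2 difference of 1.00, did not. Without salidroside replicate 1 the number called was 4, namely C1qb, C1qc, C2 and C3. These comparisons share arrays with each other and are not independent of the vehicle and salidroside comparisons above.

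Most markers of immune cells had a positive vehicle minus sham difference, and few were called. Summed over the 10 tested of 11 microglia markers, the level relative to the 75th percentile was 18.4 to 20.2 on sham, 21.9 to 34.6 on vehicle and 19.2 to 35.6 on salidroside arrays. For 7 tested of 8 macrophage markers it was 5.82 to 7.70, 11.3 to 23.8 and 6.85 to 14.1. A sum is led by its brightest probes, and the macrophage sum was nearly all Lyz2. The scaled log2 of Lyz2 was 2.47 to 2.88 in sham, 3.44 to 4.52 with vehicle and 2.69 to 3.78 with salidroside. Every other tested macrophage marker had negative scaled log2 values on all arrays. Salidroside replicates 1 and 2 had microglia sums of 20.1 and 19.2, within the sham range. Of the 10 microglia markers 9 had a positive vehicle minus sham difference, against 57.9% of all features. P2ry13 was the 1 called by limma, where 1.11% of all features were called higher. The fractalkine receptor Cx3cr1 was at -1.28 (limma adjusted p = 0.0892). Of the macrophage markers all 7 were positive and 2 were called, the endotoxin co-receptor Cd14, which rose by 1.81 and was above background on all arrays, and the scavenger receptor Cd163. P2ry13 and Cd163 were above background on 1 of 3 sham arrays each, so the sizes of their differences, 1.44 and 2.78, rest on dim sham spots. Both were tested only because a whole MCAO group was above background, for Cd163 the vehicle group alone. Their calls are therefore not free of that choice. Neuron markers went the other way: their summed level, over 7 tested of 8, was 46.2 to 50.5 in sham, 31.5 to 42.3 with vehicle, without overlap, and 40.3 to 50.3 with salidroside. Between vehicle and sham 6 of the 7 were negative, while 57.9% of all features were positive. Thy1, a surface protein of neurons, fell by 1.00 on the log2 scale (limma adjusted p = 0.0462). Between salidroside and vehicle all 7 neuron markers were positive, as 58.6% of all features were, with a median of 0.19 and 0 called. The summed astrocyte level was 127 to 167 in sham, 161 to 214 with vehicle and 143 to 183 with salidroside, with no marker called. In dissected tissue, fewer or more cells of a type and less or more RNA per cell cannot be told apart, and the part of these cells in the complement values was not tested.

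**Figure D3:**
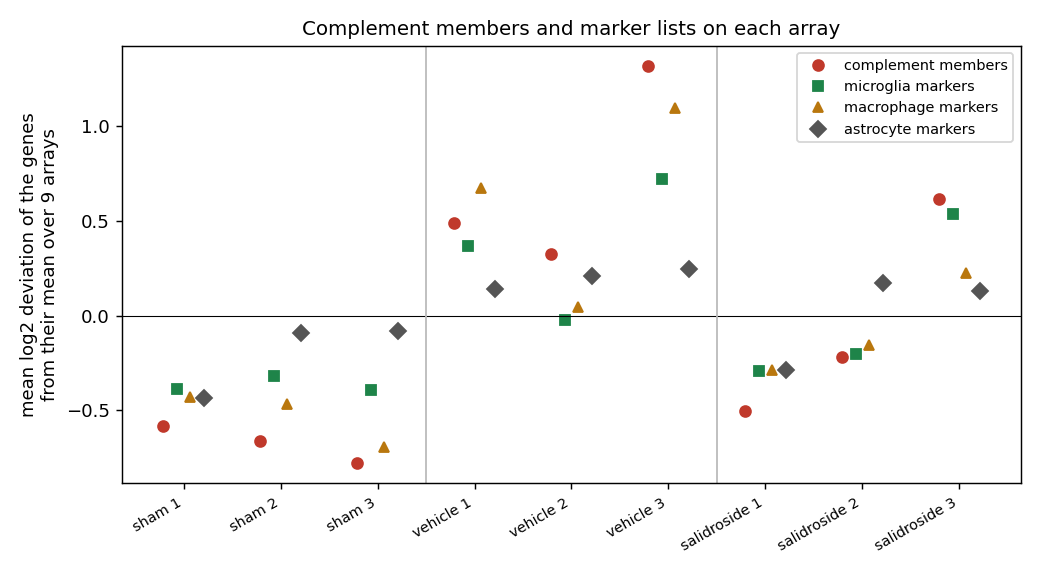
Mean log2 deviation of the genes of a list from their own mean over the 9 arrays, for the 9 complement members (circles), microglia markers (squares), macrophage markers (triangles) and astrocyte markers (diamonds), per array. The complement mean was -0.58, -0.66 and -0.78 on the sham arrays, 0.49, 0.32 and 1.32 with vehicle and -0.50, -0.22 and 0.61 with salidroside.

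Markers of the choroid plexus, the tissue that makes cerebrospinal fluid, also varied among the MCAO arrays. Ttr, its defining transcript, stood at -1.31, -2.11 and -2.10 in sham, 4.28, -2.70 and 6.43 with vehicle and -3.46, -3.03 and 6.42 with salidroside. The 2 arrays with the highest Ttr, vehicle replicate 3 and salidroside replicate 3, were also the highest of their groups for every member but Cfb, whose highest salidroside value was on replicate 1. The summed level of the 5 tested of 8 choroid plexus markers was 0.490 to 0.778 in sham, 1.06 to 89.5 with vehicle and 0.404 to 86.1 with salidroside, and 0 of the 5 were called between vehicle and sham. Vehicle replicate 2 had the lowest of the vehicle sums, 1.06. On that array Ttr was below every sham array, while Folr1 at -3.02 and Otx2 at -0.88 were above every sham array, Otx2 being well above background on 1 sham array. Kcnj13 at -2.22 and Clic6 at -5.49 lay within the sham range on that array. There 8 of the 9 members stood above every sham array, as 29.7% of all features did, C1qa by 1.35 and C1qc by 1.57 over the sham mean. The part of choroid plexus in the complement values was not tested. Markers of neutrophils, fibroblasts and hepatocytes were checked as well. Of 6 neutrophil markers 3 were tested, S100a8 differing by 2.51 between vehicle and sham and S100a9 by 2.10 with neither called, Mpo having no named probe and Ngp and Mmp8 not being well above background in any whole group. Of 5 hepatocyte markers, liver being the main source of plasma complement, 4 were tested, with a median difference of -0.08 and 0 called, and the 7 fibroblast and meninges markers had a median of 0.80 and 0 called.

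None of the 9 members is a regulator, so regulators were taken from lists of complement genes by role. Of 17 regulators listed 14 were tested, and 10 had a positive vehicle minus sham difference, as 57.9% of all features did. An unadjusted p under 0.05 was found for 6, all higher, against 15.8% of all features higher at that level. None was called by limma at the adjusted threshold, and their median was 0.55. Between salidroside and vehicle 10 were negative, while 58.6% of all features were positive. An unadjusted p under 0.05 was found for 2, both lower, against 2.79% of all features lower at that level. None was called in this comparison and the median was -0.27. The fluid-phase regulators had medians of 0.62 and -0.21 over 8 tested of 9, and the membrane regulators of 0.47 and -0.40 over 6 tested of 8. C4bpa was not well above background in any whole group, and Csmd2 and Csmd3 had no named probe.

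Serping1, which encodes the C1 inhibitor that pulls C1r and C1s off C1q, had the largest difference among the regulators tested. It stood at 0.77, 0.11 and -0.11 in sham, 2.08, 1.62 and 2.57 with vehicle and 0.68, 0.18 and 1.92 with salidroside. The vehicle arrays lay above sham, and salidroside replicates 1 and 2 lay within the sham range. The log2 difference was 1.84 between vehicle and sham (SE 0.455, limma adjusted p = 0.0697) and -1.16 between salidroside and vehicle (adjusted p = 0.792). Cfi, the protease that inactivates C3b, differed between vehicle and sham by 0.81 (adjusted p = 0.128), and between salidroside and vehicle by -0.26, which was 0.77 under normexp correction. Clu, a chaperone that blocks the terminal complex, differed by 0.59 and -0.29.

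On membranes, Cd55 speeds the decay of the C3 convertase, Cd46 helps cleave C3b, Cr1l does both in rodents and Cd59 stops the terminal pore. Cd46 differed by 0.99 between vehicle and sham (limma adjusted p = 0.176), Cd55 by 0.76 (-0.30 under normexp correction), Cr1l by 0.50 and Cd59b, the name to which the Cd59 probe was matched, by 0.45. Between salidroside and vehicle they stood at -0.48, -0.72, -0.38 and -0.42, and under normexp correction Cd46, Cd55 and Cr1l were at 0.58, 0.97 and 0.26. Cd55 was well above background on 6 of the 9 arrays and Cd46 on 8, so their values rest on dim spots.

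**Figure D4:**
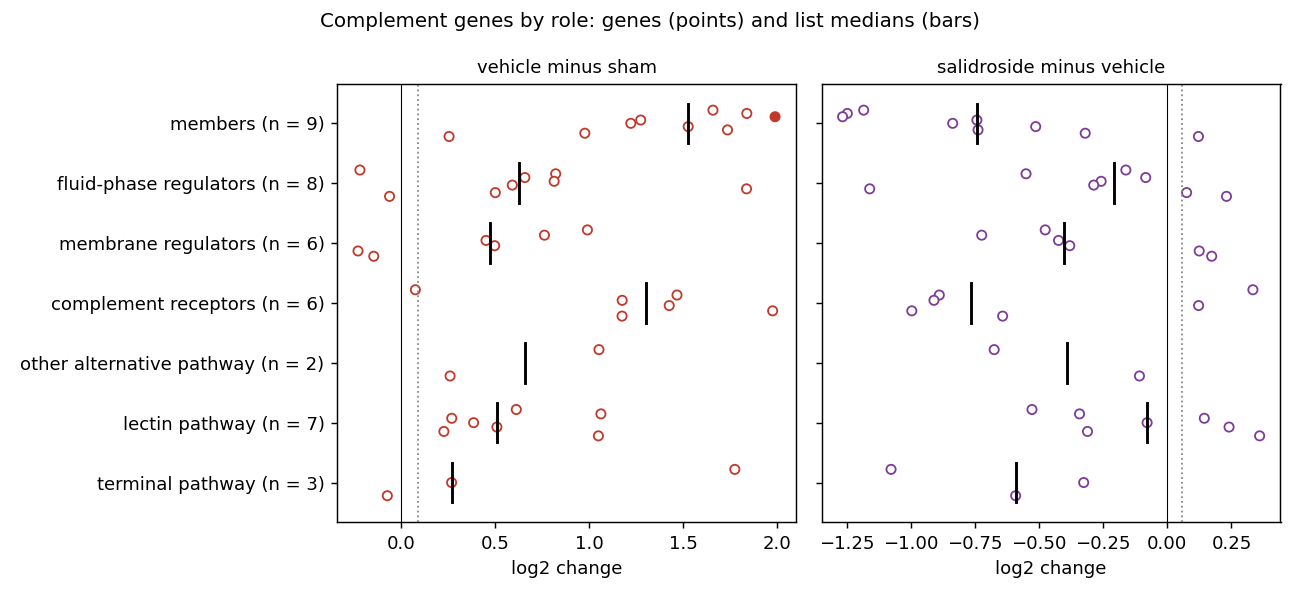
Log2 differences of the complement genes by role for vehicle minus sham (left) and salidroside minus vehicle (right), with 1 circle per tested gene, a black bar for the median of a list, a solid line at 0 and a dotted line at the median of all features (0.0903 and 0.0558). The filled circle is C1qc. The members and the receptors have the highest medians on the left, 1.53 and 1.30.

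Receptors for complement fragments had a median of 1.30 between vehicle and sham over 6 tested of 8, and of -0.77 between salidroside and vehicle. Between vehicle and sham 4 had an unadjusted p under 0.05, against 15.8% of all features higher at that level, and none was called by limma. Itgax had no named probe and Vsig4 was not well above background in any whole group. Itgam, a subunit of complement receptor 3 on microglia and macrophages, differed by 1.97 (limma adjusted p = 0.0979) and was well above background on 1 sham array and all MCAO arrays. Its difference ran from 0.056 to 2.42 over 18 alternatives. C5ar1, a receptor of the inflammatory fragment C5a, stood at -2.32, -2.90 and -3.11 in sham, -1.59, -1.81 and -0.52 with vehicle and -2.58, -2.63 and -1.39 with salidroside, a layout in which vehicle lay above sham and salidroside replicate 3 among the vehicle arrays. Its difference from sham was 1.47 with vehicle (adjusted p = 0.100). C5ar2, its relative, differed by 1.18 (adjusted p = 0.137, -0.16 under normexp correction). Cr2, the receptor of C3d, differed by 1.43 with vehicle (adjusted p = 0.0979) and 1.55 with salidroside (adjusted p = 0.122), the former -0.04 under normexp correction.

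In the rest of the alternative pathway, Cfd, the protease that cuts factor B, differed by 1.05 between vehicle and sham (SE 0.239, limma adjusted p = 0.0576) and by -0.68 between salidroside and vehicle. Cfd stood at -2.64, -2.86 and -3.06 in sham and -1.71, -2.19 and -1.50 with vehicle, without overlap, and at -2.47, -2.81 and -2.16 with salidroside. Cfp, or properdin, which stabilises the C3 convertase, differed by 0.26, and by -0.13 without vehicle replicate 3. Lectin pathway genes, whose proteins start complement from sugars, had medians of 0.51 and -0.08 over 7 tested of 9, with Colec11 lacking a named probe and Colec10 dim in every whole group. Among them Fcna differed by 1.06 between vehicle and sham (adjusted p = 0.0903), Mbl2 by 1.05, Masp2 by 0.51 and Colec12 by 0.61, of which Fcna, Mbl2 and Masp2 were negative under normexp correction (-0.27, -0.19 and -0.29). The terminal genes, which build the membrane pore, were tested for 3 of 7, C6 at 1.77 (adjusted p = 0.0986), C8b at 0.27 and C9 at -0.07. C6 was well above background on 2 of 3 sham arrays, and its difference ran from 0.25 to 2.3 over 18 alternatives. C5, C7 and C8g had no named probe and C8a was not well above background in any whole group. None of these lists had a member called in any of the 4 comparisons by limma. At an unadjusted p under 0.05 between vehicle and sham were 1 of 7 lectin, 1 of 3 terminal and 1 of 2 other alternative pathway genes. Over all features 15.8% were higher at that level.

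Interferon response genes were counted beside the members, since interferons are known inducers of several complement genes. Of 13 genes all were tested, and 10 had a positive vehicle minus sham difference, as 57.9% of all features did. An unadjusted p under 0.05 was found for 4, all higher, against 15.8% of all features higher at that level. None was called by limma, and their median was 0.33, against 1.53 for the members. Psmb8 and Psmb9, subunits of the immunoproteasome, differed by 1.25 (limma adjusted p = 0.107) and 1.16 (adjusted p = 0.115), and the peptide transporter Tap1 by 0.76. The median between salidroside and vehicle was 0.07.

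Among 13205 named features outside the complement lists, the 8 whose values followed the members' mean most closely over the 9 arrays were Tep1, Gpnmb, Gusb, Tnfaip8l2, Rasal3, Lcn2, Tmem176b and Glipr1. Their correlation with it was 0.984 to 0.992 (Pearson's r, n = 9 arrays), and 0.964 to 0.989 on deviations from the group means. These are the highest of many and are given as a description. Tep1, a telomerase-associated protein, rose by 1.14 from sham to vehicle (limma adjusted p = 0.0476). Gpnmb, a membrane glycoprotein of phagocytes, stood at -3.86, -4.16 and -4.58 in sham, -1.06, -1.96 and 0.49 with vehicle and -4.06, -3.57 and -1.41 with salidroside. The vehicle arrays of Gpnmb lay far above sham. Salidroside replicate 3 lay apart from the other 2, as it did for C1qa, C1qb, C1r and C4a among the members. The log2 difference of Gpnmb between vehicle and sham was 3.36 (limma adjusted p = 0.0585).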

How the data were processed

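Total RNA of 9 rat brains was measured on 9 one-colour (Cy3) Agilent arrays. Per the file headers, the authors extracted them with Agilent Feature Extraction 11.0.1.1 on a design built on rn4, and the deposited signals are fluorescence intensity, background-subtracted and detrended but not normalized between arrays. A second deposited table gives log2 values for 19477 probes, with column medians of 8.691 to 8.706 and one maximum (17.91), and correlates with each array's own log2 signal at 0.99967 or more. Its processing beyond that is not given in the sources used here.

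In R 4.3.3 with limma 3.58.1, log2 signals had each array's 75th percentile subtracted, outlier spots were dropped and spots of 1 probe averaged. Of 30367 probes, 18005 were named by accession through RefSeq's GRCr8 gene table, and 25576 were tested, as all arrays of 1 group or more had them well above background. The brightest probe per name gave 22783 features. All 9 arrays entered 1 model of 3 groups (6 residual degrees of freedom) with 4 contrasts. The number of arrays limits precision. The members and lists were chosen with earlier results of these data known. All members are named, and up to 4 genes of each complement list (3 of the interferon list) by the smallest p over the contrasts, 1 of which is not reported here. Marker genes are named as context, and Cr1, an older symbol of Cr1l, was counted once. The script was tested on simulated data. Alternatives covered background correction (normexp, offset 50, on median signals, since the mean pixel signal was not used here), scaling, the dim-probe filter, blocks, array weights, the deposited table and leaving out arrays.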

Additional observations from a re-analysis of the deposited data

How the results depend on the processing

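The number of members called between vehicle and sham, 1 of 9 as reported, was 0 under normexp correction, with no filter on dim probes and with slide as a block. It was 3 under quantile normalization and with only the compared groups in the fit, 4 with the deposited value table and with probes above background on all arrays, 5 under median scaling and 6 with array weights. It was 1 with the mean of the probes of a gene. Without 1 array it lay between 0 and 4. No member was called between salidroside and vehicle in any setting run. Between salidroside and sham 1 was called with array weights and 0 to 1 without 1 array. For both MCAO groups against sham, 2 were called under quantile normalization, median scaling and the deposited value table, 1 with probes above background on all arrays, 8 with array weights and 0 to 4 without 1 array. That comparison needs all 3 groups, so a fit of only the compared groups was not run. Why the counts moved was not tested.

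With the replicate number as a block, 1 member was called between vehicle and sham and 0 in each of the other comparisons. Same-numbered arrays had correlations of deviations from -0.187 to 0.255, so the replicate numbers were not taken as pairs. The sample titles join other arrays by a shared first number. Vehicle replicates 1, 2 and 3 share it with salidroside replicates 3, 1 and 2, at correlations of 0.356, 0.466 and 0.354. Each of these pairs also shared a slide. On slide 1, vehicle replicate 1 and salidroside replicate 2 had a correlation of -0.283. Vehicle replicate 3 and salidroside replicate 3, also on slide 1, had 0.0709, and neither pair shares a first number. What the first number of the titles stands for is not given in the sources used here, and no fit used it as a block.

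Several differences changed sign under normexp correction, which put the median over features at -0.144 between vehicle and sham and at 0.548 between salidroside and vehicle. Between vehicle and sham these were Cd55 (-0.30), Cfp (-0.038), Fcna (-0.27), Masp2 (-0.29), Mbl2 (-0.19), Cr2 (-0.041) and C5ar2 (-0.16). Between salidroside and vehicle they were C1r (0.18), C1s (0.23), C3 (0.045), Cfi (0.77), Cd46 (0.58), Cd55 (0.97) and Cr1l (0.26), and Cfb was -0.10 with array weights. Without 1 array, differences that changed sign ran from -0.053 to 0.50 for Cfb, -0.27 to 0.10 for C9 and -0.13 to 0.46 for Cfp between vehicle and sham, from -0.10 to 0.43 for Cfb and -0.81 to 0.017 for Cd46 between salidroside and vehicle, and from -0.016 to 0.85 for C1qa between salidroside and sham. None of these genes was called in the comparison named. Median scaling put the median of all features at -0.0892 between vehicle and sham and -0.103 between salidroside and sham, against 0.0903 and 0.115 as reported. Dim spots limit Cd55, Mbl2 and C5ar2, each well above background on 6 of 9 arrays, and Itgam on 7.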
